A study of Mus musculus with 4 samples.

Results

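The CC chemokine ligands are small secreted proteins with a pair of adjacent cysteines near the amino end, which direct the movement of leukocytes along gradients. They act through G protein-coupled receptors of the Ccr group, and most ligands of the family share receptors with others. In tumours, myeloid cells are a known source of several of them: one set attracts monocytes, one attracts T cells and NK cells, and one attracts T cells that carry Ccr4, regulatory T cells among them. The transcripts of 10 such ligands, chosen by gene symbol (Ccl17, Ccl22, Ccl6, Ccl9, Ccl7, Ccl8, Ccl2, Ccl3, Ccl4 and Ccl5), were examined in sorted myeloid cells. All 10 were found among the 13976 genes of the deposited table, and each reached at least 10 CPM (counts per 1000000 reads, as scaled by the authors) in 1 or more libraries.

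The source of the cells was EO771 tumours (EO771 is a line of mouse mammary carcinoma). There were 4 sorted populations: a dendritic cell (DC) population labelled CD103intCD11b+DC (called CD103int DC here), CD103+cDC1, CD11b+cDC2 and macrophages, with 1 RNA-seq library each. The study's title concerns local treatment with hetIL-15, a heterodimer of interleukin-15 and its receptor alpha chain, and the design sets the sorted populations against each other. The sources used here give neither the strain, age and number of the mice nor the gates of the sort, and do not say whether the tumours were treated. With 1 library per population there was no replicate check of any difference, no test between populations and no p-value. A range in brackets after a value is its 95% interval from counting error alone, on reads that carried no known molecular identifiers and so may be PCR copies.

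The libraries held about 55960049 (CD103int DC), 44425908 (cDC1), 44940500 (cDC2) and 63817502 (macrophage) reads, estimated from the values. The cDC1 library listed 454 genes at 0, against 10 to 20 in the others. Rescaling the columns to equal totals moved the median difference over all genes of the CD103int DC by -0.11 on the log2 scale against cDC1, by -0.01 against cDC2 and by 0.27 against macrophages, of cDC1 by 0.10 against cDC2 and by 0.38 against macrophages, and of cDC2 by 0.28 against macrophages. The cDC1 markers set the CD103int DC apart from cDC1. In the CD103int DC 7 of 12 were lower by 4-fold or more, where 1.84% of all genes were, and 0 higher, where 2.78% were. Among the 7 were Xcr1 (9.13 against 130.5 CPM) and Itgae, the gene of CD103 (13.2 against 77.0 CPM). The cDC2 markers as a set did not place cDC2 above cDC1. Of 9 counted, cDC1 had 3 at least 4-fold higher than cDC2, where 2.34% of all genes were, and 1 lower, where 3.59% were. The 3 were Cd7, Cd209a (257 against 31.5 CPM) and Clec10a, and the 1 lower was Clec4a2 (15.6 against 144 CPM). The summed level of the 15 macrophage marker genes was 3483 CPM in the CD103int DC, 1049 CPM in cDC1, 5040 CPM in cDC2 and 4934 CPM in macrophages, sums that were close in cDC2 and macrophages while single markers differed: 3 of the 15, C1qa, C1qb and C1qc, were at least 4-fold higher in cDC2, where 0.246% of all genes were. Of 5 plasmacytoid DC markers in the table, 4 (Ccr9 among them) stood 4-fold or more below cDC1 in the CD103int DC, as against 1.84% of all genes, and the sum of the 5 was 133.0 CPM in the CD103int DC, 713 CPM in cDC1, 172 CPM in cDC2 and 261 CPM in macrophages. The remaining marker of that list, Bst2, was highest in macrophages, at 138 CPM against 91.6 CPM in cDC1. The macrophage column had a different name prefix from the 3 DC columns. Its meaning is unknown, and should it stand for a batch, batch and population cannot be told apart wherever macrophages are compared.

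The 10 ligands fell into patterns by the library in which each stood highest. Ccl6, Ccl9, Ccl17 and Ccl22 were highest in the CD103int DC, Ccl2, Ccl3, Ccl4, Ccl5 and Ccl7 in macrophages, and Ccl8 in cDC2. None was highest in cDC1, and 8 of the 10 were lowest there, the exceptions being Ccl17 and Ccl22, which were lowest in macrophages. The 11 monocyte markers moved with the macrophage library: their summed level was 8447 CPM in the CD103int DC, 1659 CPM in cDC1, 6097 CPM in cDC2 and 17628 CPM in macrophages, with none at 0. In each DC library 8 of the 11 stood 4-fold or more below macrophages, where 1.31% (CD103int DC), 5.57% (cDC1) and 0.565% (cDC2) of all genes did. The part of monocytes in the ligands highest in macrophages, and of plasmacytoid DC in the low levels of cDC1, was not tested. For comparison, of the 8724 genes that reached 10 CPM somewhere, 18.2% were highest in the CD103int DC, 31.1% in cDC1, 12.3% in cDC2 and 38.3% in macrophages, and 38.7% were lowest in cDC1. In bulk libraries a lower share of expressing cells and less RNA per cell cannot be told apart, so each level is an average over the sorted cells.

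**Figure D1:**
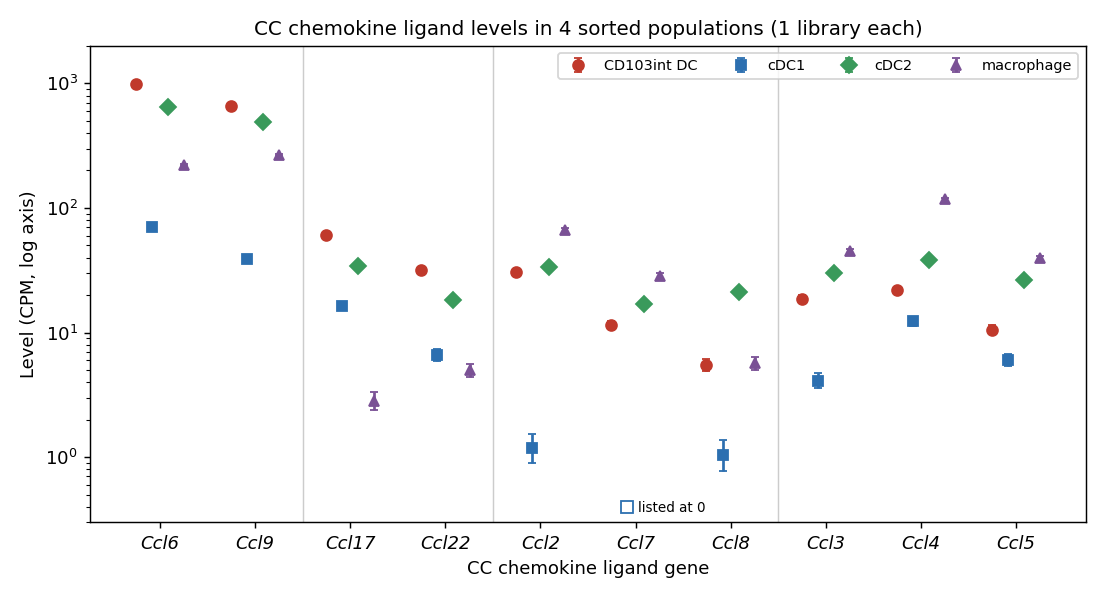
Level of each ligand gene in CPM (log axis) in the CD103int DC, cDC1, cDC2 and macrophage libraries, 1 point per library, with bars for the 95% counting interval. Ccl6 and Ccl9 span 38.7 to 985 CPM with the CD103int DC on top, and the open square marks Ccl7, listed at 0 in cDC1.

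Ccl6 and Ccl9 were the most abundant of the ligands in the DC libraries other than cDC1. Both encode rodent chemokines that act on Ccr1, and they lie side by side on the minus strand of chromosome 11 (Ccl9 at 83572919 to 83578636 and Ccl6 at 83587882 to 83593087, GRCm38). Ccl6 stood at 985 (977 to 993) CPM in the CD103int DC, 70.5 (68.1 to 72.8) CPM in cDC1, 651 (644 to 659) CPM in cDC2 and 221 CPM in macrophages. Ccl9 stood at 655 (648 to 662) CPM in the CD103int DC, 38.7 (37.0 to 40.5) CPM in cDC1, 490.0 (484 to 496) CPM in cDC2 and 268 CPM in macrophages. Both genes thus had the same order of libraries, with the CD103int DC first and cDC1 last. The CD103int DC level of Ccl6 was 1.51-fold (1.49 to 1.53) that of cDC2 and 4.45-fold (4.36 to 4.54) that of macrophages. For Ccl9 the same ratios were smaller, at 1.34-fold (1.31 to 1.36) and 2.45-fold (2.40 to 2.49). Per kb of exon, which allows levels of different genes to be compared, Ccl6 exceeded Ccl9 by 2.55-fold in the CD103int DC, 3.09-fold in cDC1, 2.26-fold in cDC2 and 1.40-fold in macrophages. E230016K23Rik, an annotated gene on the opposite strand that spans Ccl6 without sharing exon bases with it (named for its position), was at 8.22 CPM in the CD103int DC, 0.428 CPM in cDC1, 2.24 CPM in cDC2 and 1.56 CPM in macrophages.

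The promoters of this neighbouring pair are shown because both genes were highest in the same library. Each sequence is the 156 bases before the annotated start site, on the strand of the gene, from RefSeq (GRCm38.p6). Capitals mark matches, on either strand, to any of 7 motifs searched: a STAT6-type motif (TTC and GAA with 4 bases between), a STAT motif (TTC and GAA with 3 between), 2 NF-kappaB motifs (GGGA and TTCC, or GGG and TTTCC, with 2 between), an interferon response motif (GAAA and GAAA with 2 between), AP-1 (TGANTCA) and the core of the ETS family (GGAAGT). The motifs were chosen after the sequences were seen, and no 2 matches overlapped.
Ccl6 (chr11:83593088-83593243, minus strand): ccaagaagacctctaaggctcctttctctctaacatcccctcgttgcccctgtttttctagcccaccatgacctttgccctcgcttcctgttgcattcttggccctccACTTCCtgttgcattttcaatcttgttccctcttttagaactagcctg
Ccl9 (chr11:83578637-83578792, minus strand): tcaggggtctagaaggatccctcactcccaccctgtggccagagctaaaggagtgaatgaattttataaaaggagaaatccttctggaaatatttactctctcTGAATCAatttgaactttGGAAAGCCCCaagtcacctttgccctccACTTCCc
The longest stretch shared by the 2 windows was 13 bases, gccctccacttcc, which begins 55 bases before the start site of Ccl6 and 14 bases before that of Ccl9. It holds the ETS core motif on the reverse strand, a motif found in 13.9% of all 32851 RefSeq windows of this length. Ccl9 alone of the pair had an AP-1 match (4.42% of windows) and a match to the second NF-kappaB motif (0.956% of windows). These matches are descriptions of the letters only.

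Ccl17 and Ccl22 encode the ligands of Ccr4, through which Th2 and regulatory T cells are attracted, and are well known as products of DC. They lie within 66.4 kb on the plus strand of chromosome 8 (Ccl22 at 94745590 to 94751699 and Ccl17 at 94810453 to 94812036, GRCm38). Ccl17 stood at 61.1 (59.1 to 63.2) CPM in the CD103int DC, 16.3 (15.2 to 17.4) CPM in cDC1, 34.1 (32.4 to 35.8) CPM in cDC2 and 2.82 CPM in macrophages. Ccl22 stood at 31.6 (30.2 to 33.1) CPM in the CD103int DC, 6.63 (5.92 to 7.39) CPM in cDC1, 18.3 (17.1 to 19.6) CPM in cDC2 and 4.97 CPM in macrophages. The order of libraries was the same for both, and all 3 DC libraries were above the macrophage library. The CD103int DC exceeded cDC2 in Ccl17 by 1.79-fold (1.69 to 1.90) and in Ccl22 by 1.72-fold (1.59 to 1.87). Against macrophages the 2 genes differed in size, at 21.7-fold (18.4 to 25.6) for Ccl17 and 6.37-fold (5.60 to 7.26) for Ccl22. In cDC1 the level of Ccl17 was 5.77-fold (4.85 to 6.90) that of macrophages, whereas for Ccl22 it was 1.33-fold (1.13 to 1.57). Per kb of exon, Ccl17 exceeded Ccl22 by 8.74-fold in the CD103int DC, 11.1-fold in cDC1, 8.40-fold in cDC2 and 2.57-fold in macrophages.

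Their promoters follow, by the same rule and with the same motifs in capitals. The Ccl22 window ends before the GENCODE start, which lies 94 bases upstream of the RefSeq start.
Ccl17 (chr8:94810297-94810452, plus strand): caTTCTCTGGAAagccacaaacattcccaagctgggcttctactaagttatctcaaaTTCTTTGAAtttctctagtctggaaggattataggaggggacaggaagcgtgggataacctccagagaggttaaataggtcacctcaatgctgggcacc
Ccl22 (chr8:94745434-94745589, plus strand): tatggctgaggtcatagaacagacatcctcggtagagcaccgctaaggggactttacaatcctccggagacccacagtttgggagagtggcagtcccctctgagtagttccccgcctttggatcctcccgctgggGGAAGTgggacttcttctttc
Ccl17 had 1 STAT6-type match, beginning 154 bases before the start and found in 3.35% of all windows, and 1 STAT match, beginning 99 bases before the start and found in 4.25% of windows. Ccl22 had neither in its window and matched only the ETS core. The windows of this pair shared no stretch longer than 7 bases. Of the other ligands, Ccl8 and Ccl3 had RefSeq windows too, with 0 matches in either.

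Genes of the interleukin-4 and STAT6 response, a pathway known to induce Ccl17 and Ccl22, were set beside them. Against cDC2, 4 of 13 measured were at least 2-fold higher in the CD103int DC, where 1.56% of all genes were, and 0 lower, where 0.665% were (median difference 0.55 on the log2(CPM + 1) scale, against 0.02 for all genes). The 4 were Retnla, a secreted resistin-like protein (142 against 14.0 CPM), the lipoxygenase gene Alox15 (51.6 against 16.0 CPM), the lectin gene Mgl2 (807 against 368 CPM) and the mannose receptor gene Mrc1 (633 against 311 CPM). Against macrophages, 3 of the 13 were at least 4-fold higher in the CD103int DC, namely Retnla, Mgl2 and Alox15, and 1 was at least 4-fold lower, Chil3 (78.5 against 788 CPM), where 0.836% of all genes were higher and 1.31% lower. Genes of mature or migratory DC, cells that also make Ccl17 and Ccl22, were measured too. Against cDC2, 2 of the 7 counted lay above 0 and 5 below in the CD103int DC (median -0.66), and 0 were 2-fold apart, a count near the 1.56% higher and 0.665% lower over all genes. Among these, Fscn1, a gene of actin bundling, was at 8.24 CPM in the CD103int DC, 26.4 CPM in cDC1, 14.8 CPM in cDC2 and 13.4 CPM in macrophages. Il4i1, an amino acid oxidase gene, was at 27.6, 264, 27.5 and 41.7 CPM in the same order. The other counted genes of this list did not share the peak of Fscn1 and Il4i1 in cDC1. Cd63 was lowest in cDC1 (127, 11.1, 202 and 51.6 CPM in the same order). Cd40 and Cd80 were highest in macrophages, Ccr7 in cDC2 and Socs2 in the CD103int DC.

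Ccl2, Ccl7 and Ccl8 encode chemokines of the monocyte chemoattractant kind. Ccl2 is the main ligand of Ccr2, which brings monocytes from the blood, Ccl7 acts on Ccr2 and other receptors, and mouse Ccl8 acts on Ccr8. The 3 genes lie within 81.2 kb on the plus strand of chromosome 11 (82035571 to 82116799, GRCm38), with Ccl12, another Ccr2 ligand, between Ccl7 and Ccl8. Ccl2 stood at 30.7 (29.3 to 32.2) CPM in the CD103int DC, 1.18 (0.898 to 1.53) CPM in cDC1, 33.4 (31.8 to 35.1) CPM in cDC2 and 66.5 CPM in macrophages. Ccl7 stood at 11.4 (10.6 to 12.4) CPM in the CD103int DC, was listed at 0 in cDC1, and stood at 17.1 (15.9 to 18.3) CPM in cDC2 and 28.5 CPM in macrophages. These 2 genes had the same order of libraries, with macrophages first, cDC2 next, the CD103int DC after it and cDC1 last, although the intervals of Ccl2 in the CD103int DC and cDC2 overlapped. Ccl2 was 0.919-fold (0.858 to 0.985) in the CD103int DC relative to cDC2 and 0.462-fold (0.436 to 0.489) relative to macrophages. No fold is given for Ccl7 against cDC1, where it was listed at 0 (an upper limit of 0.0752 CPM), and Ccl7 in the CD103int DC was 0.670-fold (0.603 to 0.744) the level of cDC2. The 58 estimated reads of Ccl2 in cDC1, the 51 of Ccl8 and the 0 of Ccl7 were the lowest read numbers of the 10 ligands in any library.

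Ccl8 did not go with its neighbours. It stood at 5.54 (4.95 to 6.18) CPM in the CD103int DC, 1.04 (0.774 to 1.37) CPM in cDC1, 21.3 (20.03 to 22.7) CPM in cDC2 and 5.64 CPM in macrophages. The cDC2 library was thus high alone: cDC2 was 3.78-fold (3.32 to 4.31) above macrophages, while the CD103int DC was 0.260-fold (0.228 to 0.295) the level of cDC2. The CD103int DC and the macrophages could not be told apart at this depth (0.981-fold, 0.836 to 1.15), and the sign of their difference turned with either rescaling of the columns. The cDC2 library was also the highest in fibroblast genes, although at low levels: the 6 of 8 fibroblast markers in the table summed to 11.8 CPM in the CD103int DC, 10.99 CPM in cDC1, 45.6 CPM in cDC2 and 23.2 CPM in macrophages, and only in cDC1 was 1 of them, Pdgfrb, at 0. It was highest too in the complement genes C1qa (228, 36.7, 572 and 105 CPM in the same order), C1qb and C1qc, which are macrophage markers. The part of either in the level of Ccl8 was not tested.

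Genes of the type I interferon response, which is known to raise Ccl2, Ccl7, Ccl8 and Ccl12, were highest in macrophages: the 17 summed to 2194 CPM in the CD103int DC, 2142 CPM in cDC1, 3225 CPM in cDC2 and 9651 CPM in macrophages. Against macrophages, 11 of 17 were 4-fold or more lower in the CD103int DC, where 1.31% of all genes were (median -2.14, against -0.07 for all genes). Against cDC2, 0 were 2-fold apart, near the 1.56% higher and 0.665% lower over all genes. All 17 had differences below 0 there (median -0.52, against 0.02 for all genes). Ccl2, Ccl7, Ccl8 and Ccl12 were below 0 too, but so were Ccl3, Ccl4, Ccl5 and 14 of 15 macrophage markers. The part of interferon in the levels of these ligands was not tested. Rsad2, an antiviral enzyme gene, was at 123 CPM in the CD103int DC, 73.9 CPM in cDC1, 174 CPM in cDC2 and 1184 CPM in macrophages. Against cDC1, where Ccl2 in the CD103int DC was 26.0-fold (20.02 to 34.4) higher, the median of the interferon genes differed by 0.16 and 0 of 17 were at least 4-fold apart, where 2.78% of all genes were higher and 1.84% lower.

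Ccl3, Ccl4 and Ccl5 encode inflammatory chemokines that attract T cells, NK cells and monocytes, Ccl3 and Ccl5 through Ccr1 among other receptors. Ccl3 and Ccl4 are neighbours on chromosome 11 (Ccl3 at 83647844 to 83649355 on the minus strand, Ccl4 at 83662584 to 83664683 on the plus strand), and Ccl5 lies at 83525778 to 83530518 on the minus strand. Ccl4 stood at 22.0 (20.8 to 23.2) CPM in the CD103int DC, 12.3 (11.4 to 13.4) CPM in cDC1, 38.0 (36.3 to 39.9) CPM in cDC2 and 117 CPM in macrophages. Ccl3 stood at 18.7 (17.6 to 19.9) CPM in the CD103int DC, 4.12 (3.57 to 4.73) CPM in cDC1, 29.8 (28.2 to 31.4) CPM in cDC2 and 45.3 CPM in macrophages. Ccl5 stood at 10.5 (9.71 to 11.4) CPM in the CD103int DC, 6.05 (5.39 to 6.78) CPM in cDC1, 26.4 (24.9 to 27.9) CPM in cDC2 and 39.5 CPM in macrophages. Macrophages were highest, cDC2 next and cDC1 lowest for all 3. The lead of macrophages over the CD103int DC was widest for Ccl4, whose CD103int DC level was 0.188-fold (0.176 to 0.199) that of macrophages, against 0.414-fold (0.385 to 0.444) for Ccl3 and 0.267-fold (0.244 to 0.292) for Ccl5. Over cDC1 their lead was widest for Ccl3, whose cDC1 level was 0.0910-fold that of macrophages, against 0.105-fold for Ccl4. Per kb of exon, Ccl4 exceeded Ccl3 by 1.36-fold in the CD103int DC, 3.48-fold in cDC1, 1.48-fold in cDC2 and 3.004-fold in macrophages.

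Relative to cDC1, the CD103int DC level of Ccl3 was 4.55-fold (3.91 to 5.31), but that of Ccl4 was 1.78-fold (1.62 to 1.97) and that of Ccl5 1.74-fold (1.51 to 2.01). Genes of the NF-kappaB and inflammatory response, a pathway known to induce Ccl3, Ccl4 and Ccl5, were set beside them. Against cDC1, 11 of the 15 tested stood at least 2-fold higher in the CD103int DC, where 9.16% of all genes were, and 1 stood lower, where 5.46% were (median 1.497, against 0.03 for all genes), with Tnf at 47.2 against 5.61 CPM. The 1 lower was the subunit gene Nfkb1, named after its values were seen, at 232 against 509 CPM. Against macrophages, the CD103int DC had 4 of 15 lower by 2-fold or more, where 8.31% of all genes were, and 0 higher, where 4.35% were (median -0.87), with Il1b at 735 against 2495 CPM. Between the CD103int DC and cDC2, 0 of 15 were 2-fold apart (median -0.10), near the 1.56% higher and 0.665% lower over all genes.

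Ccl3, Ccl4 and Ccl5 are also made by NK and T cells. The 9 NK cell markers in the table, of 11 listed, summed to 1.81 CPM in the CD103int DC, 31.6 CPM in cDC1, 27.1 CPM in cDC2 and 7.38 CPM in macrophages, with Klrb1c at 0 in cDC1 and no other at 0. The 12 T cell markers in the table, of 13 listed, summed to 98.7 CPM in the CD103int DC, 149.8 CPM in cDC1, 118 CPM in cDC2 and 73.7 CPM in macrophages, with none at 0. Most of each sum was Il7r, at 71.5, 103.8, 73.2 and 52.8 CPM in the same order. Cd3e, of the T cell receptor complex, was at 0.0174 CPM in the CD103int DC, 2.24 CPM in cDC1, 1.79 CPM in cDC2 and 0.715 CPM in macrophages. Other members of that list differed in order: Cd2 was at 6.51 CPM in the CD103int DC, 1.41 CPM in cDC1, 1.25 CPM in cDC2 and 1.81 CPM in macrophages, and Cd6 was highest in the CD103int DC too. Between the CD103int DC and cDC2 the NK markers and Ccl5 both stood lower in the CD103int DC, and the part of NK and T cells in the 0.399-fold (0.361 to 0.440) level of Ccl5 was not tested.

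The comparisons were summarised by size, counting a gene whose log2(CPM + 1) values lay 2 or more apart (4-fold), provided that 10 CPM was reached in 1 library of the pair. Against cDC1, 9 ligands could be counted and 5 were at least 4-fold higher in the CD103int DC, where 2.78% of 8443 genes were. They were Ccl9 (16.9-fold, 16.1 to 17.7), Ccl6 (14.0-fold, 13.5 to 14.5), Ccl2, Ccl22 (4.77-fold, 4.24 to 5.39) and Ccl7, and none was at least 4-fold lower, where 1.84% of genes were. Adding 5 CPM in place of 1 left 3 of the 5. At 2-fold, 7 were higher, where 9.16% of genes were, and 0 lower, where 5.46% of genes were. Just below the threshold were Ccl3 and Ccl17, which differed by 1.95 and 1.85 on the log2 scale, Ccl17 at 3.76-fold (3.48 to 4.06). The median difference over the 9 was 2.10, against 0.03 for all genes.

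Against cDC2, none of the 10 ligands was 4-fold apart in the CD103int DC, where 0.197% of 8119 genes were higher and 0.0123% lower. At 2-fold, 2 were lower, Ccl8 and Ccl5, where 0.665% of genes were, and 0 were higher, where 1.56% of genes were. The median was -0.33, against 0.02 for all genes. The 4 ligands above 0 were Ccl6, Ccl9, Ccl17 and Ccl22, the same 4 that were highest in the CD103int DC, and the 6 below 0 were the rest.

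Against macrophages, 3 of the 9 ligands counted (Ccl8 was below 10 CPM in both libraries) were at least 4-fold higher in the CD103int DC, where 0.836% of 8254 genes were. These were Ccl17, Ccl22 and Ccl6, and with 5 CPM added in place of 1 there were 2. Ccl4 was at least 4-fold lower, where 1.31% of genes were. All 9 were at least 2-fold apart: 4 were higher, where 4.35% of genes were, and 5 lower, where 8.31% of genes were, so that the family was split between the 2 populations. The median, -1.09, against -0.07 for all genes, lies between these 2 sets and describes neither. With the columns rescaled to equal totals, the lower ligands Ccl7 (-0.99), Ccl3 (-0.97) and Ccl2 (-0.83) fell short of 2-fold.

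**Figure D2:**
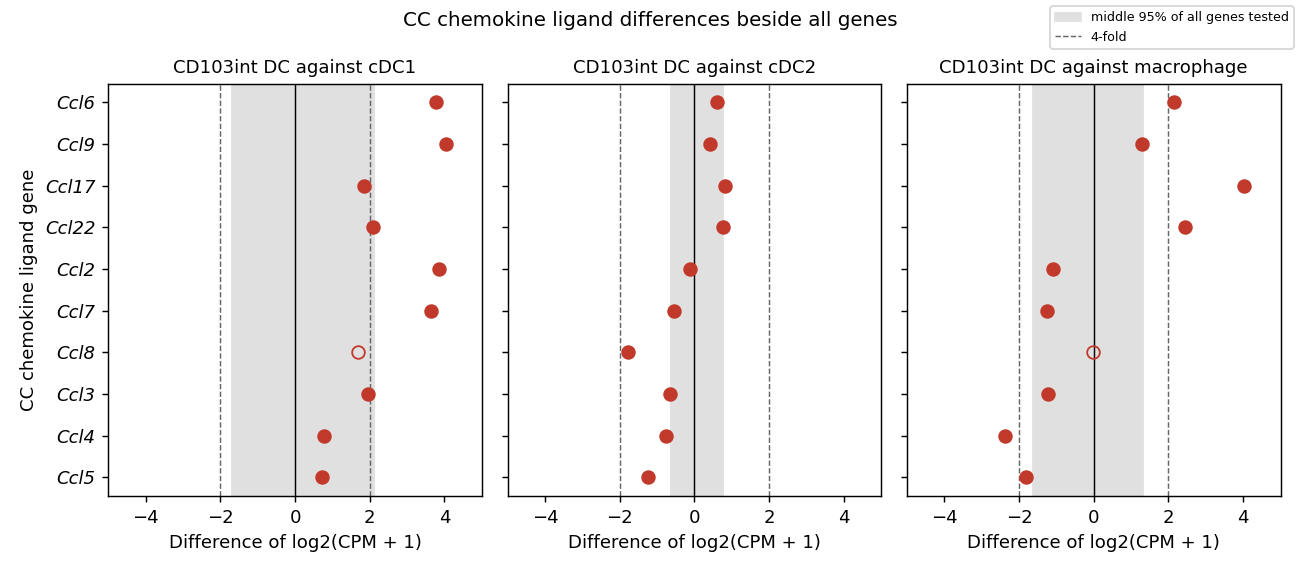
Difference of log2(CPM + 1) of each ligand gene in the CD103int DC against cDC1, cDC2 and macrophages, 1 panel each. Grey bands span the middle 95% of all genes tested, dashed lines mark 4-fold, and the open circles are Ccl8 where it was below 10 CPM in both libraries. Points run to the right against cDC1, stay within 4-fold against cDC2 and split to both sides against macrophages, where Ccl17 is at 4.02 and Ccl4 at -2.36.

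Among the other populations, cDC1 was below cDC2 for every ligand. All 10 were at least 2-fold lower in cDC1, where 9.56% of 8459 genes were, and 6 were at least 4-fold lower, where 3.59% of genes were. None was higher at either size, where 7.27% of genes were 2-fold and 2.34% were 4-fold higher. The 6 were Ccl2, Ccl3, Ccl6, Ccl7, Ccl8 and Ccl9, with Ccl6 at 0.108-fold (0.104 to 0.112) and Ccl9 at 0.0790-fold (0.0754 to 0.0828). Ccl17 was only just 2-fold lower in cDC1, at -1.02 on the log2 scale. It fell short of 2-fold, at -0.93, with the columns rescaled to equal totals. Against macrophages, cDC1 was at least 4-fold lower in 6 of 8 ligands counted, where 5.57% of 8468 genes were, and at least 4-fold higher in 1, Ccl17, where 2.57% of genes were. At 2-fold, 7 were lower, where 15.8% of genes were, and 1 higher, where 9.21% of genes were. With 5 CPM added in place of 1, Ccl17 no longer reached 4-fold in cDC1. In cDC2 against macrophages, 1 of 10 was at least 4-fold higher, Ccl17 at 12.1-fold (10.2 to 14.3), where 0.246% of 8141 genes were, and 0 were lower, where 0.565% of genes were. At 2-fold, 4 were higher in cDC2, where 1.78% of genes were, and 1 lower, Ccl4, where 6.01% of genes were. The 3 comparisons with each library share that library, so their counts are not independent of each other.

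The make-up of the CC ligand transcripts was compared per kb of exon, over the 14 CC ligand genes of the table. The sum was 1077 CPM per kb in the CD103int DC, 130.2 in cDC1, 888 in cDC2 and 647 in macrophages. Ccl6 and Ccl9 together made up 70.9% of it in the CD103int DC, 39.9% in cDC1, 59.0% in cDC2 and 32.7% in macrophages. Ccl17 and Ccl22 made up 12.3% in the CD103int DC, 26.5% in cDC1, 8.36% in cDC2 and 1.18% in macrophages, so that their share was largest in cDC1, where their level was not. Ccl3, Ccl4 and Ccl5 made up 6.38% in the CD103int DC, 23.3% in cDC1, 14.0% in cDC2 and 42.9% in macrophages. Ccl6 ranked first per kb in the 3 DC libraries, whereas in macrophages Ccl4 ranked first, at 178 CPM per kb, and Ccl6 second, at 123 CPM per kb. Without Ccl6 and Ccl9 the sum was 314 CPM per kb in the CD103int DC, 78.2 in cDC1, 364 in cDC2 and 435 in macrophages, so the first place of the CD103int DC in the total rested on those 2 genes.

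**Figure D3:**
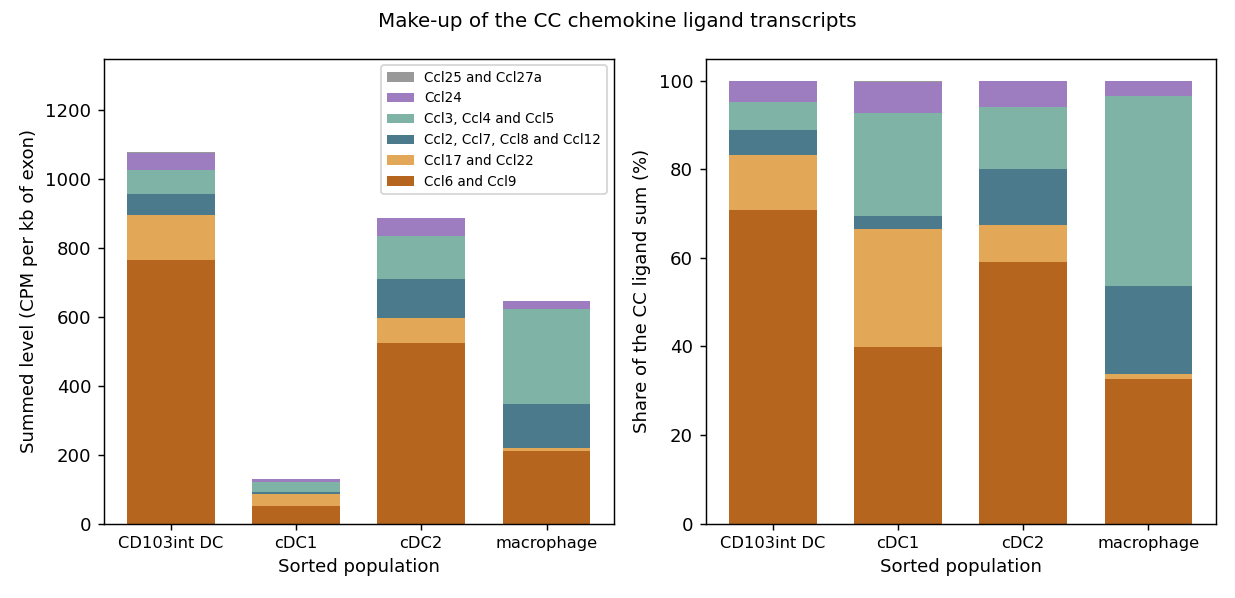
Stacked bars of the CC ligand genes in the CD103int DC, cDC1, cDC2 and macrophages, as summed level in CPM per kb of exon (left) and as percent of that sum (right), by groups of ligands. Ccl6 and Ccl9 fill 70.9% of the CD103int DC bar and 32.7% of the macrophage bar, where Ccl3, Ccl4 and Ccl5 fill 42.9%.

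Of the 13 other CC ligand genes listed, 4 were in the table. Ccl24, which encodes an attractant of eosinophils that acts on Ccr3, was at 66.9 CPM in the CD103int DC, 11.7 CPM in cDC1, 66.3 CPM in cDC2 and 28.2 CPM in macrophages. The CD103int DC and cDC2 could not be told apart in it at this depth (1.01-fold, 0.961 to 1.06), and against cDC1 the CD103int DC stood 5.72-fold (5.24 to 6.26) higher. Ccl12 was at 4.32 CPM in the CD103int DC, 0.387 CPM in cDC1, 11.1 CPM in cDC2 and 12.0 CPM in macrophages, the order of Ccl2 and Ccl7. Ccl25, a ligand of Ccr9, ranged from 1.22 CPM in cDC1 to 6.16 CPM in macrophages, but shares 204 exon bases with Elavl1 on the opposite strand, and Ccl27a was below 1 CPM in every library.

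Receptors of these ligands were measured in the same cells. Of 10 CC receptor genes listed, 6 were in the table, and Ccr4 and Ccr8 were not analysed here. Ccr2, the receptor of Ccl2, was at 832 CPM in the CD103int DC, 254 CPM in cDC1, 701 CPM in cDC2 and 978 CPM in macrophages. Ccr1, the receptor of Ccl6 and Ccl9, was at 185 CPM in the CD103int DC, 70.4 CPM in cDC1, 209.6 CPM in cDC2 and 236 CPM in macrophages. Both receptors were thus lowest in cDC1 and differed by less than 2-fold among the other 3 libraries. Neither was 4-fold apart in any pair of libraries.

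Ccrl2, which encodes a receptor-like protein that binds chemerin and does not signal as a chemokine receptor, was at 197 CPM in the CD103int DC, 33.2 CPM in cDC1, 237 CPM in cDC2 and 400 CPM in macrophages. Ccr7, which guides migrating DC to lymph nodes, was at 11.1 CPM in the CD103int DC, 10.2 CPM in cDC1, 18.3 CPM in cDC2 and 14.4 CPM in macrophages. Ccr9 was highest in cDC1, at 1.96 CPM in the CD103int DC, 56.5 CPM in cDC1, 2.85 CPM in cDC2 and 5.34 CPM in macrophages, and it overlaps other genes on both strands. It is itself 1 of the plasmacytoid DC markers, and Siglech, Spib and Tcf4 of that list were highest in cDC1 too. Siglech was at 0.366 CPM in the CD103int DC, 14.98 CPM in cDC1, 1.38 CPM in cDC2 and 0.733 CPM in macrophages. Spib was at 4.18, 48.6, 6.94 and 7.40 CPM in the same order, and Tcf4 at 63.2, 501, 70.7 and 110 CPM. Bst2, also on that list, was highest in macrophages, at 63.3, 91.6, 90.0 and 138 CPM. The part of plasmacytoid DC in the level of Ccr9 was not tested. Ccr3 and Ccr6 were at or below 1.15 CPM in every library, Ccr3 being listed at 0 in cDC1.

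**Figure D4:**
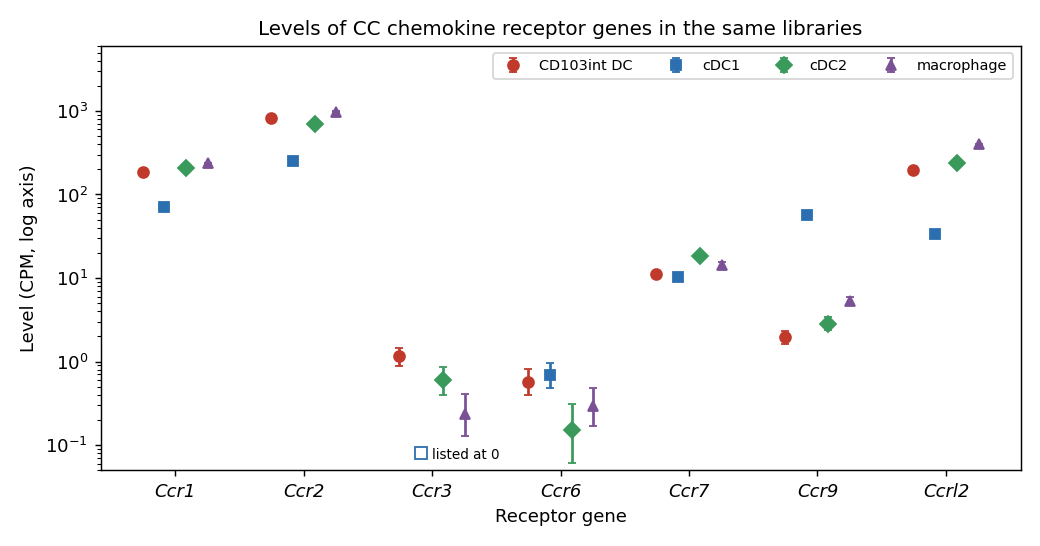
Level of 7 receptor genes in CPM (log axis) in the CD103int DC, cDC1, cDC2 and macrophage libraries, 1 point per library with 95% counting intervals. Ccr1 and Ccr2 each lie within a narrow range outside cDC1, Ccr9 stands out in cDC1 at 56.5 CPM, and the open square marks Ccr3, listed at 0 there.

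The genes with the pattern most like each ligand were found by the distance between mean-centred profiles of log2(CPM + 1) over the 4 libraries, among 8724 genes. With 4 points per gene the likeness is a description only. Ccl7 and Pdpn were listed at 0 in cDC1, so their points there were set by the 1 CPM added, and their distances depend on it. Il1rn, the interleukin-1 receptor antagonist gene, lay nearest to Ccl7 (distance 0.08), at 236 CPM in the CD103int DC, 17.9 CPM in cDC1, 341 CPM in cDC2 and 592 CPM in macrophages, and Ccl2 came next (0.30). Lyz2, the lysozyme gene of myeloid cells, lay nearest to Ccl2 (0.28), with Il1rn and Ccl7 after it. The gene nearest to Ccl6 was the lectin gene Clec4b1 (0.32) and the one nearest to Ccl9 was Pdpn (0.38), while Ccl9 was the 11th nearest gene to Ccl6 and Ccl6 the 19th nearest to Ccl9. For Ccl3 the nearest was Gm36161 (0.08), followed by the transglutaminase gene Tgm2 (0.09). For Ccl4 the named gene among the nearest 3 with most reads was Tlr7, a sensor of RNA (0.23), at 37.4 CPM in the CD103int DC, 18.9 CPM in cDC1, 71.8 CPM in cDC2 and 197 CPM in macrophages. Ccl5 lay nearest to Abi3 (0.25), Ccl22 to the tetraspanin gene Cd81 (0.36), Ccl8 to Zmynd15 (0.60) and Ccl17 to Ccdc80 (0.88). Ccl17 had the most isolated profile of the 10 by this measure, and its genomic neighbour Ccl22 was its 22nd nearest gene, at a distance of 1.43.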

How the data were processed

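RNA-seq libraries of 4 sorted populations were compared, 1 each. The deposited values are an expression signal, by the name of the deposited table CPM with TMM scaling of library sizes by the authors and a filter on genes. The aligner, counter, strand setting and build were not given in the sources used here. Per the labels' protocols, RNA was extracted on columns, treated with DNase I and made into libraries with a directional kit. All 13976 pairs of identifier and symbol matched GENCODE M21 (GRCm38), which gave coordinates and union exon lengths. The value of 1 read was taken as the common step of each column. Between 70.6% and 79.0% of values were whole multiples of it (tolerance 0.001 of a step), the others fractions, so no count test was run. Intervals are exact Poisson or binomial on estimated reads (Python 3.11.15, scipy 1.17.1).

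A difference is between log2(CPM + 1) values, a scale that makes the change of low genes look smaller. The ligands, gene lists and motifs were chosen with earlier results of these data known. Genes named besides the ligands are other CC ligands and receptors, list members at least 4-fold apart in a pair, markers, overlapping genes, and up to 3 nearest profiles per ligand; Dpp4, Mrc1 and Nfkb1, less than 4-fold apart, were named after their values were seen. 1 receptor gene is not reported here. Of 50-base stretches of each ligand's transcripts, 59 of 2996 of Ccl9 occur in other genes, and 0 of the other 9 ligands. The size rule was tested on simulated data. The alternatives tried were 2 other scalings, 2 other added values, 2 other minimum levels and a 2-fold threshold.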

Additional observations from a re-analysis of the deposited data

How the results depend on the processing

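No paired analysis was possible because each population had 1 library. The 12 counts of ligands at least 4-fold apart (6 pairs, 2 directions) did not move under either rescaling of the columns or either other minimum level. With 5 CPM added in place of 1, against cDC1 the CD103int DC had 3 ligands higher (5 with 1 CPM added), and against macrophages cDC1 had 0 higher (1 with 1 CPM added), since a larger added value shrinks differences of low genes. It also left 2 higher in the CD103int DC than in macrophages (3 with 1 CPM) and 5 lower in cDC1 than in cDC2 (6 with 1 CPM). With 0.1 CPM added, 6 were higher in the CD103int DC against cDC1 and 7 lower in cDC1 against cDC2; the other 10 counts were the same. With a 2-fold threshold, the ligands lower in the CD103int DC numbered 2 against cDC2 and 5 against macrophages, those lower in cDC1 than in cDC2 numbered 10, and in cDC2 against macrophages 4 were higher and 1 was lower. The 2-fold counts were less steady under rescaling to equal totals. There, Ccl2, Ccl3 and Ccl7 fell below 2-fold between the CD103int DC and macrophages, and Ccl17 between cDC1 and cDC2. Ccl9 rose above 2-fold in cDC2 against macrophages. No 4-fold difference changed sign. Ccl8 in the CD103int DC against macrophages differed by -0.02 on the log2 scale, against 0.20 with equal column totals and 0.04 with median-ratio scaling. Low read numbers limit mainly cDC1, where Ccl2 and Ccl8 rest on 58 and 51 estimated reads. At nearly the same depth, these genes had 1551 and 990 estimated reads in cDC2. Without replicate libraries the spread between samples of a population is unknown.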

Other observations

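Genes whose products bind, cut or inactivate chemokines were measured in the same cells. Of the 9 that could be counted, against cDC1 the CD103int DC had 7 higher by 2-fold or more, where 9.16% of all genes were, and 1 lower, where 5.46% were (median difference 1.66 on the log2 scale, against 0.03 for all genes), and 0 were 2-fold apart from cDC2, near the 1.56% higher and 0.665% lower over all genes (median 0.09). Mmp12, a macrophage elastase that cuts several chemokines, stood at 1447 CPM in the CD103int DC, 225 CPM in cDC1, 1249.5 CPM in cDC2 and 168 CPM in macrophages. This was the order of Ccl6 and Ccl9 in the DC libraries, but macrophages were lowest. Dpp4, a peptidase that removes the first residues of many chemokines, was at 38.6 CPM in the CD103int DC, 119 CPM in cDC1, 35.2 CPM in cDC2 and 51.7 CPM in macrophages. Of 8 genes of the response to GM-CSF, a growth factor of myeloid cells, against cDC2 the CD103int DC had 1 higher by 2-fold or more, where 1.56% of all genes were, and 0 lower, where 0.665% were (median 0.24, against 0.02 for all genes). Against cDC1 the same 8 had 1 higher by 2-fold or more, where 9.16% of all genes were, and 3 lower, where 5.46% were (median -0.18, against 0.03 for all genes).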
